A study of Mus musculus with 8 samples.

Results

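The genes described here are interferon-induced genes: genes whose transcription rises when a cell senses an interferon, a cytokine released on infection or tissue damage. A list of 37 mouse genes was used, and 33 of them had at least 1 probe set (a group of short probes for 1 transcript) annotated to that gene alone, out of 12393 named genes on the array. The 33 genes have 47 of the 22690 probe sets, and a gene with several is represented by its brightest one on average. Isg15, Ifi44, Ifi203 and Xaf1 had no such probe set and were not analysed here. The list was drawn up by gene name, and no measured value chose its members, although earlier results of these data were known when it was made. All 33 passed the filter on low values, so none was lost to it.

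Type I interferons (interferon alpha and beta) bind the receptor Ifnar1 with Ifnar2 and, through the kinases Jak1 and Tyk2, activate a complex that includes Stat2 and Irf9 and binds a DNA element called the interferon-stimulated response element (ISRE). Type II interferon (interferon gamma) binds Ifngr1 with Ifngr2 and signals through Jak1 and Jak2 to genes that carry a gamma-activated site (GAS). The induced genes encode proteins that sense or destroy viral nucleic acid, block viral translation and budding, present antigen and amplify the signal, and in injured muscle the recruited leukocytes can both make and answer interferon.

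RNA was measured on 8 arrays, 2 in each of 4 groups, and all cells had been sorted for CD45 (a leukocyte surface protein) together with Sca1 (a stem, progenitor and lymphoid surface protein) from C57BL/6 mice of 6 to 8 weeks. The groups were cells of bone marrow (marrow for short), cells of uninjured muscle, cells of muscle injured with cardiotoxin (a snake venom toxin that kills muscle fibres) in mice without a transplant, called injured muscle here, and cells of cardiotoxin-injured muscle in mice given a bone marrow transplant, called transplanted injured muscle. No genetic change is named for any group. The sources used here do not give the interval between injury and sorting, the conditioning before transplant or the donor or host origin of the sorted cells. Nothing in the labels ties the 2 replicates of a group to different animals, and the p-values cover the spread of the arrays alone, part of which may be technical.

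The CD45 transcript Ptprc read 4924 to 6996 over the 8 arrays, while the Sca1 transcript was not analysed here. A pair of properties set the injured arrays apart before any interferon gene is considered. The first is the 3' to 5' ratio of control probe sets at both ends of a transcript. For Gapdh it was 10.7 to 46.9 on the 4 bone marrow and uninjured muscle arrays and 0.808 to 0.882 on the 4 injured arrays. For Actb it was 5.68 to 19 against 1.18 to 1.23. The sources used here give no reason for this split, and RNA quality and sample processing cannot be told apart in it. The second is cell content: the summed intensity of 10 monocyte and macrophage markers spanned 77686 to 89040 in the injured groups, against 7966 to 9537 for marrow and 23611 to 38155 for uninjured muscle, and that of 8 neutrophil markers was 17123 to 51366 on the arrays without injury and 386 to 711 on the injured ones. Of the 10 macrophage markers, 8 passed as higher in injured against uninjured muscle (8.77% of all tested genes) and 0 as lower. For transplanted injured muscle 7 were higher (10.5%) and 0 lower. Mrc1 read 5495 and 5070 in uninjured, 4909 and 4778 in injured, and 3476 and 3805 in transplanted injured muscle. C1qa read 61.4 and 6301 on the 2 uninjured muscle arrays. None of the markers of either list was under the filter value on all arrays. Injury, these ratios and these markers moved together, and their parts in the differences below cannot be told apart. In sorted bulk cells, fewer cells of a type and less RNA per cell cannot be told apart either.

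The promoters show what the family shares in sequence. RefSeq promoter windows (GRCm38.p6, 250 bases before to 50 after the transcription start) were found for 25 of the 33 genes. The ISRE core, GAAA, any 2 bases and GAAA again on either strand, was present in 13 of the 25 (52%) and in 3.99% of the 27025 genes with a window, and the GAS core, TTCNNNGAA on either strand, in 10 of the 25 (40%) and in 9.55% of all genes. Oas1a, Bst2, Igtp and Eif2ak2 held both, with overlapping matches of the 2 motifs in Bst2. A match describes the letters only and is no measured binding site. The 250 bases before the start are shown for Bst2 (chr8:71537473-71537722, minus strand), Cxcl10 (chr5:92348890-92349139, minus strand) and Ifit3 (chr19:34583279-34583528, plus strand), the 3 genes with an ISRE core there that rose most in injured muscle. Ifit1 (chr19:34640639-34640888, plus strand) is added as a relative of Ifit3 with the same core and a smaller difference, and Irf1 (chr11:53769764-53770013, plus strand) as the member that fell; this pair was chosen after its values were seen. Capitals mark the ISRE core in the first 4 and the GAS core in Irf1.
Bst2: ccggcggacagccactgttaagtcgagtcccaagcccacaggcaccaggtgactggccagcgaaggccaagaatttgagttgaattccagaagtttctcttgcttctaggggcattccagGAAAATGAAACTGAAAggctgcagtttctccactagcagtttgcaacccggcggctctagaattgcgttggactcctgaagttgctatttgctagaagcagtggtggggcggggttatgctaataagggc
Cxcl10: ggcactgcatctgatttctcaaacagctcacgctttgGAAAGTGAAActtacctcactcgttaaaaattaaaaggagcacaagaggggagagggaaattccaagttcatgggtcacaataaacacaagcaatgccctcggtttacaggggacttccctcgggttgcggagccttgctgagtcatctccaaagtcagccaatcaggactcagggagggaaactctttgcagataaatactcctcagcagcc
Ifit3: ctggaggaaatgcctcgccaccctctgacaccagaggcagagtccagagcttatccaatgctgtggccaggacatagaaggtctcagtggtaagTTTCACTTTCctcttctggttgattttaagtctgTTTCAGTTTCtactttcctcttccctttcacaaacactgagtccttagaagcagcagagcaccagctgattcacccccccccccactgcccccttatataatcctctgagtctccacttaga
Ifit1: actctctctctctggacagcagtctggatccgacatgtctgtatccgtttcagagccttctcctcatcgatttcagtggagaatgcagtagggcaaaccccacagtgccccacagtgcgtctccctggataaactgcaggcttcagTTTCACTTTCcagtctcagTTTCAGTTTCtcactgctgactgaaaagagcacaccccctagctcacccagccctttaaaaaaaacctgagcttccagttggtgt
Irf1: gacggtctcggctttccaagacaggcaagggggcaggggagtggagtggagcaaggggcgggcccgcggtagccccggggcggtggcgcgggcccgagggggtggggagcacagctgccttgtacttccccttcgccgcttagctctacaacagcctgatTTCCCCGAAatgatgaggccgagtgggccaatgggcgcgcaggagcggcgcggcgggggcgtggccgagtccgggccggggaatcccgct
In Bst2 a pair of overlapping ISRE matches began 130 and 124 bases before the start, and in Cxcl10 a single match began 213 bases before it. Ifit3 held matches beginning 156 and 122 bases before the start, and Ifit1 held matches with the same letters 104 and 85 bases before it. Irf1 held its GAS match 90 bases before the start and no ISRE core.

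Injured muscle was compared with uninjured muscle first, to see which interferon-induced genes differ in the sorted cells after cardiotoxin. Of the 33 genes, 19 rose, 1 (Irf1) fell and 13 did not pass the test (limma, Benjamini-Hochberg adjusted p under 0.05 over all 16289 tested probe sets). Among the 9506 genes tested, 8.77% rose and 15.1% fell. The median log2 fold change was 1.79 for the 33 genes and -0.25 for all tested genes, on the log2(intensity + 4) scale, which understates the change of dim genes. Both injured arrays lay above both uninjured muscle arrays for 25 of the genes (24.5% of all tested genes), below them for Irf1 alone (40.1%), and 7 overlapped. Without the first injured array 12 rose and 1 fell, and without the second 11 rose and none fell, where 2.01% and then 2.18% of all tested genes rose and 4.72% and then 5.6% fell. Irf7, Irf9, Isg20, Oas1a, Rsad2, Stat2 and Adar lost the call without either injured array, and Gbp2 without the second.

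**Figure D1:**
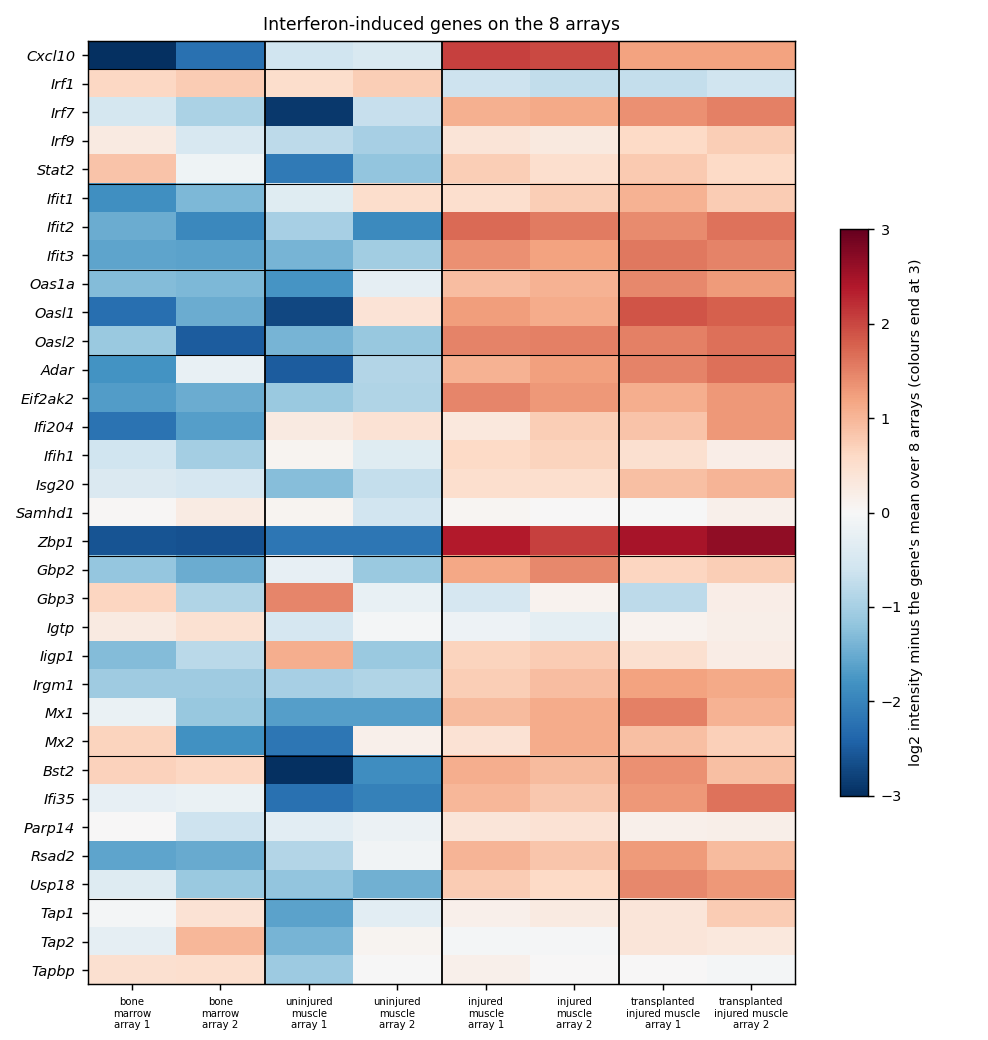
Each row is 1 of the 33 measured genes and each column 1 of the 8 arrays; colour gives log2(intensity + 4) minus the gene's mean over the arrays. Most rows are low on the 4 bone marrow and uninjured muscle arrays and high on the 4 injured ones, Irf1 runs the other way, and the median over the genes lies between -1.113 and -0.529 on the first 4 arrays and between 0.735 and 1.047 on the last 4.

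Across all arrays, 21 genes had their 4 injured arrays above the 4 others (14.8% of all tested genes) and Irf1 had them below (24.1%). Transplanted injured muscle had the highest mean for 20 genes, injured muscle for 7, bone marrow for 5 and uninjured muscle for 1. The lowest mean belonged to marrow for 16 and to uninjured muscle for 15. The most frequent order, in 11 genes, was uninjured muscle below bone marrow below injured muscle below transplanted injured muscle, and in 9 others bone marrow and uninjured muscle changed places. Within these orders no gene passed the test between the 2 injured groups, and 6 passed between bone marrow and uninjured muscle. The shares of all tested genes with these highest and lowest groups and these orders were not counted.

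Most interferon genes were dim, Ifng excepted. Of 15 ligand genes listed, 10 were measured and 4 passed the filter; Ifna4, Ifna5, Ifna9 and Ifna11 were under the filter value of 38.4 on every array. Ifng, interferon gamma, read 1063 and 1345 in marrow, 387 and 206 in uninjured muscle, 41.1 and 26.7 in injured muscle, and 51.7 and 57.0 in transplanted injured muscle. The groups with injury were the low ones, and the groups of uninjured cells did not overlap with them. Ifng fell by 2.94 (SE 0.41, limma adjusted p = 0.00306) in injured against uninjured muscle, and the summed markers of T cells (7 measured) were 1983 to 3171 in uninjured muscle and 324 to 342 in injured muscle, with those of natural killer cells (7 measured) at 1191 to 1204 and 630 to 689; their part was not tested. Ifnb1, interferon beta, read 19.6 and 33.8 in marrow, 59.6 and 291 in uninjured muscle, 34.8 and 58.9 in injured muscle, and 6.74 and 10.8 in transplanted injured muscle. It passed only for transplanted injured against uninjured muscle, where it was lower, and its high value is that of 1 array.

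Of 16 measured receptor and signalling genes, 5 rose and 2 fell in injured against uninjured muscle, beside 8.77% and 15.1% of all tested genes, with a median of 0.16. Ifngr2, a chain of the interferon gamma receptor, read 14.3 and 54.3 in uninjured muscle and 370 and 490 in injured muscle, a log2 fold change of 3.72 (SE 0.53, limma adjusted p = 0.00336). Ifnar1, a chain of the type I receptor, read 132 and 235 against 1143 and 872, a change of 2.47 (SE 0.35, adjusted p = 0.00349). Ptpn6, a phosphatase that dampens cytokine receptors, rose by 2.12, Jak1 by 1.09 and Ifnar2 by 0.83, whereas Jak2 fell by 1.32 and Ptpn2, a phosphatase of Jak and Stat proteins, fell by 1.88. Ifngr1, which completes the interferon gamma receptor, read 830 and 679 against 668 and 793 and did not pass.

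The 4 transcription factors split: 3 rose and 1 fell. Irf7, the factor that drives interferon alpha transcription, read 888 and 662 in marrow, 168 and 790 in uninjured muscle, 2681 and 2830 in injured muscle, and 3326 and 3662 in transplanted injured muscle. All 4 injured arrays were high, and the uninjured muscle arrays were far apart. The log2 fold change in injured muscle was 2.90 (SE 0.60, limma adjusted p = 0.012). Without the first uninjured muscle array it was 1.80 and without the second 4.01, and it did not pass with only the 4 arrays compared or without either injured muscle array (adjusted p up to 0.0718). Stat2, a part of the complex that binds the ISRE, read 225 and 112 in marrow, 25 and 51.6 in uninjured muscle, 207 and 175 in injured muscle, and 214 and 187 in transplanted injured muscle, so that uninjured muscle was the low group and bone marrow overlapped with both injured groups. It rose by 2.28 (SE 0.46, adjusted p = 0.011). Its second probe set placed bone marrow with uninjured muscle instead: it read 33.1 and 46.6 in marrow, 41.9 and 50.9 in uninjured muscle, 198 and 254 in injured muscle, and 254 and 316 in transplanted injured muscle, and rose by 2.18 (SE 0.36) in injured against uninjured muscle. Irf9, the DNA-binding part of the same complex, read 442 and 265, 212 and 182, 480 and 454, and 559 and 621 in these groups, and rose by 1.23 (SE 0.34, adjusted p = 0.0309).

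Irf1, a factor induced strongly by interferon gamma, was the single member that fell. It read 2393 and 2636 in marrow, 2240 and 2602 in uninjured muscle, 1008 and 923 in injured muscle, and 934 and 1020 in transplanted injured muscle. The 4 injured arrays formed a tight low group and the other 4 a tight high group. The log2 fold change was -1.32 (SE 0.22, limma adjusted p = 0.00589) in injured against uninjured muscle and -1.30 (SE 0.22, adjusted p = 0.00458) in transplanted injured against uninjured muscle. Without the second injured array the first adjusted p was 0.0547.

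Cxcl10, a secreted chemokine that attracts activated T cells, read 69.2 and 135 in marrow, 429 and 469 in uninjured muscle, 2706 and 2563 in injured muscle, and 1503 and 1500 in transplanted injured muscle. The 4 groups did not overlap, and their order was bone marrow, uninjured muscle, transplanted injured muscle, injured muscle. It rose by 2.54 (SE 0.34, limma adjusted p = 0.00278) in injured against uninjured muscle. Its promoter holds the ISRE core shown above.

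**Figure D2:**
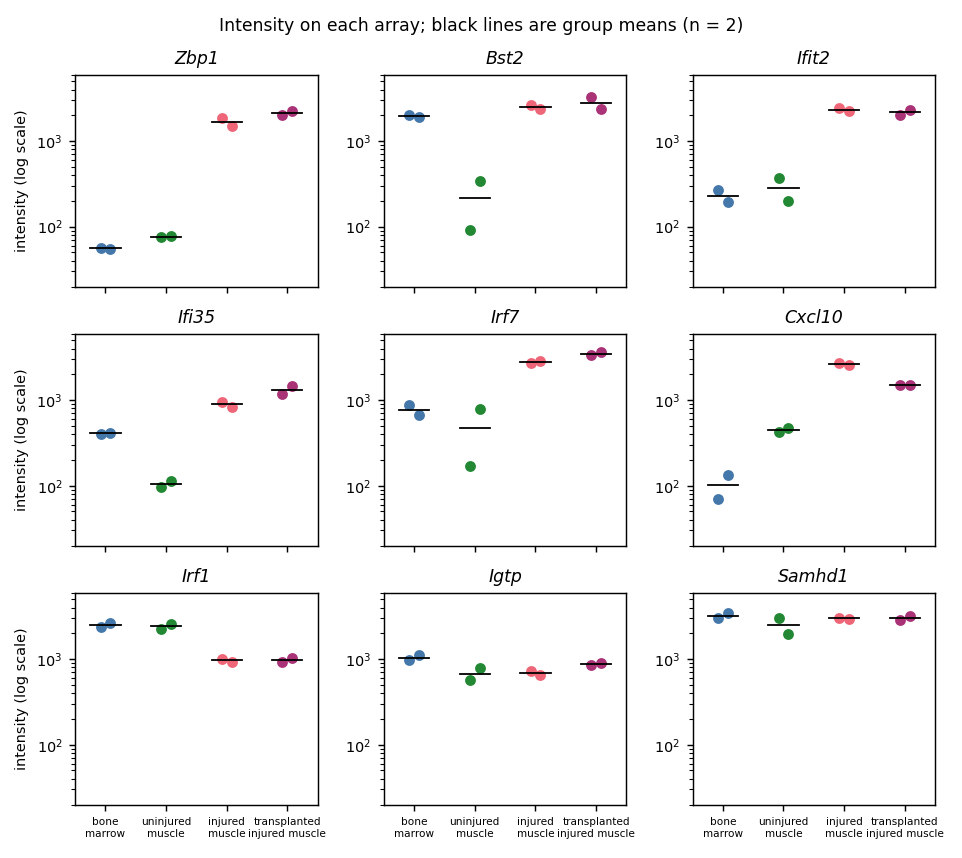
Intensity on a log axis on each of the 8 arrays for genes the text turns on, with 2 points in each of the 4 groups and the group mean as a black line. Cxcl10 separates all 4 groups, Irf1 is low in both injured groups, and Bst2 is low in uninjured muscle alone.

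The Ifit proteins bind viral RNA and stop its translation, and 2 of the 3 measured rose. Ifit2 read 267 and 194 in marrow, 373 and 198 in uninjured muscle, 2455 and 2224 in injured muscle, and 2031 and 2340 in transplanted injured muscle. Ifit3 read 356 and 354, 407 and 521, 2812 and 2484, and 3246 and 3018 in the same order. Both genes were low in both groups without injury, which overlapped for Ifit2, and high in both injured groups. In injured muscle Ifit2 rose by 3.08 (SE 0.36, limma adjusted p = 0.00179) and Ifit3 by 2.51 (SE 0.25, adjusted p = 0.00113). Ifit1 behaved otherwise: it read 125 and 178 in marrow, 351 and 657 in uninjured muscle, 644 and 761 in injured muscle, and 946 and 770 in transplanted injured muscle. Its uninjured and injured muscle arrays overlapped (log2 fold change 0.54, SE 0.38, adjusted p = 0.316), and bone marrow was its low group. The promoters of Ifit3 and Ifit1 hold the same pair of ISRE letters at different distances, and neither window of Ifit2 holds an ISRE core.

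Of 7 genes for sensing, editing and decay of nucleic acid, 4 rose. Zbp1, a sensor of left-handed nucleic acid that can start cell death, had the largest difference of all 33 genes: it read 56.0 and 55.6 in marrow, 76.4 and 77.1 in uninjured muscle, 1880 and 1491 in injured muscle, and 2020 and 2278 in transplanted injured muscle. The groups without injury were close to each other and more than an order of magnitude below both injured groups. The log2 fold change in injured muscle was 4.38 (SE 0.29, limma adjusted p = 0.000372). Adar, an enzyme that edits adenosine to inosine in double-stranded RNA, read 64.1 and 195 in marrow, 37.5 and 122 in uninjured muscle, 479 and 543 in injured muscle, and 653 and 729 in transplanted injured muscle, a change of 2.83 in injured against uninjured muscle (SE 0.63, adjusted p = 0.0153), and 2.02 or 3.63 without the first or the second uninjured muscle array. Eif2ak2 (PKR), a kinase that halts translation on double-stranded RNA, read 21.8 and 25.6, 34.1 and 39.8, 224 and 199, and 171 and 200 in the same order, a change of 2.40 (SE 0.34, adjusted p = 0.00333). Isg20, an exonuclease that degrades RNA, read 412 and 394, 226 and 339, 796 and 789, and 1046 and 1136, and rose by 1.5 (SE 0.30). For all of these genes the 4 injured arrays lay above the 4 others.

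Ifih1 (MDA5), a sensor of long double-stranded RNA, read 1333 and 981 in uninjured muscle and 1919 and 2021 in injured muscle, and its change of 0.78 did not pass (limma adjusted p = 0.0703). Ifi204, a DNA sensor of the p200 family, read 22.1 and 34.4 in marrow, 142 and 159 in uninjured muscle, 146 and 197 in injured muscle, and 215 and 294 in transplanted injured muscle, so bone marrow was its low group and the difference of 0.17 (SE 0.37) between injured and uninjured muscle did not pass. Samhd1, which depletes deoxynucleotides, read 1948 to 3448 over all 8 arrays and passed in no comparison.

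The oligoadenylate synthetase family makes the messenger that activates RNase L, an activity that the mouse Oasl1 protein lacks. Oas1a read 684 and 658 in marrow, 492 and 1385 in uninjured muscle, 3199 and 3448 in injured muscle, and 4532 and 4082 in transplanted injured muscle. Oasl2 read 316 and 119, 258 and 312, 1938 and 1958, and 1969 and 2176 in the same order. The 4 injured arrays were above all others for both, with changes of 2.0 (SE 0.43, limma adjusted p = 0.013) and 2.76 (SE 0.43, adjusted p = 0.0046) in injured muscle; that of Oas1a was 1.26 without the first uninjured muscle array and 2.74 without the second. Oasl1 read 115 and 199, 81.6 and 743, 1332 and 1218, and 2093 and 1963; its change of 2.34 had an SE of 0.84 and did not pass (adjusted p = 0.0743), with uninjured muscle arrays that differed widely.

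Among 7 interferon-induced GTPases, 3 rose. Mx1 read 306 and 159 in marrow and 109 on both uninjured muscle arrays. Its values were 678 and 767 in injured muscle, and 1002 and 730 in transplanted injured muscle. In injured against uninjured muscle Mx1 rose by 2.68 (SE 0.38, limma adjusted p = 0.00336). Gbp2, a guanylate-binding protein that attacks vacuoles of intracellular microbes, read 340 and 268, 642 and 348, 1710 and 2058, and 1196 and 1261, and rose by 1.98 (SE 0.34, adjusted p = 0.0064). Irgm1, which restrains other immunity-related GTPases, read 221 and 220, 231 and 248, 775 and 886, and 1075 and 1026, and rose by 1.77 (SE 0.27, adjusted p = 0.00423). For these 3 genes all 4 injured arrays were above all 4 others.

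The other 4 GTPases passed in no comparison. Igtp, which is induced mainly by interferon gamma, had its highest values in bone marrow (968 and 1113) and read 570 and 781 in uninjured muscle, 729 and 655 in injured muscle, and 865 and 911 in transplanted injured muscle. Its log2 difference of 0.05 (SE 0.27) was the smallest of the 33 genes. Iigp1 was high on 1 uninjured muscle array (1611) and low on the other (348), with 1202 and 1288 in injured muscle. Gbp3 read 900 and 278 in uninjured muscle and 227 and 347 in injured muscle, and Mx2 read 11.4 and 73.4 against 89.9 and 148. For Iigp1 and Gbp3 the 2 uninjured muscle arrays lay farther apart than the 2 injured ones, and the groups overlapped.

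Of 5 membrane and other effectors, 4 rose. Bst2 (tetherin), which holds budding virus at the cell surface, read 2015 and 1933 in marrow, 90.5 and 339 in uninjured muscle, 2650 and 2403 in injured muscle, and 3245 and 2352 in transplanted injured muscle. Uninjured muscle was the low group, and bone marrow differed from injured muscle by 0.35 (SE 0.53), which did not pass. Bst2 rose by 3.81 (SE 0.53, limma adjusted p = 0.00306) in injured muscle, and by 2.88 or 4.74 without the first or the second uninjured muscle array. Ifi35, which joins the protein Nmi, was also lowest in uninjured muscle, but with both injured groups above bone marrow: it read 401 and 418 in marrow, 97.2 and 114 in uninjured muscle, 953 and 842 in injured muscle, and 1172 and 1473 in transplanted injured muscle. Its rise was 3.04 (SE 0.29, adjusted p = 0.001). Bst2 is also a surface marker of plasmacytoid dendritic cells, and 6 markers of those cells summed to 8129 to 8491 in marrow, 1686 to 2272 in uninjured muscle, 1115 to 1132 in injured muscle and 733 to 801 in transplanted injured muscle; their part was not tested.

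Rsad2 (viperin), an enzyme that makes a chain-terminating nucleotide, read 1165 and 1211 in marrow, 1879 and 3221 in uninjured muscle, 7080 and 6150 in injured muscle, and 8456 and 6723 in transplanted injured muscle, a change of 1.42 (SE 0.28, limma adjusted p = 0.00945). Usp18, which removes Isg15 from proteins and restrains the type I receptor, read 527 and 321, 301 and 254, 1174 and 1056, and 1897 and 1726, a change of 1.99 (SE 0.31, adjusted p = 0.00469). Both genes had all 4 injured arrays above the others. Parp14, an ADP-ribosyltransferase, read 638 and 701 in uninjured muscle and 1025 and 1069 in injured muscle, and its difference of 0.64 did not pass.

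None of the 3 antigen-processing genes passed in injured against uninjured muscle. Tap1, a subunit of the peptide transporter, read 928 and 1302 in marrow, 318 and 773 in uninjured muscle, 1076 and 1176 in injured muscle, and 1245 and 1656 in transplanted injured muscle, with a difference of 1.17 (SE 0.42, limma adjusted p = 0.075). Tap2, the other subunit, read 130 to 691 over the 8 arrays and Tapbp (tapasin), which loads the peptide, read 1069 to 3221. Bone marrow had the highest mean for Tap2 and Tapbp.

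**Figure D3:**
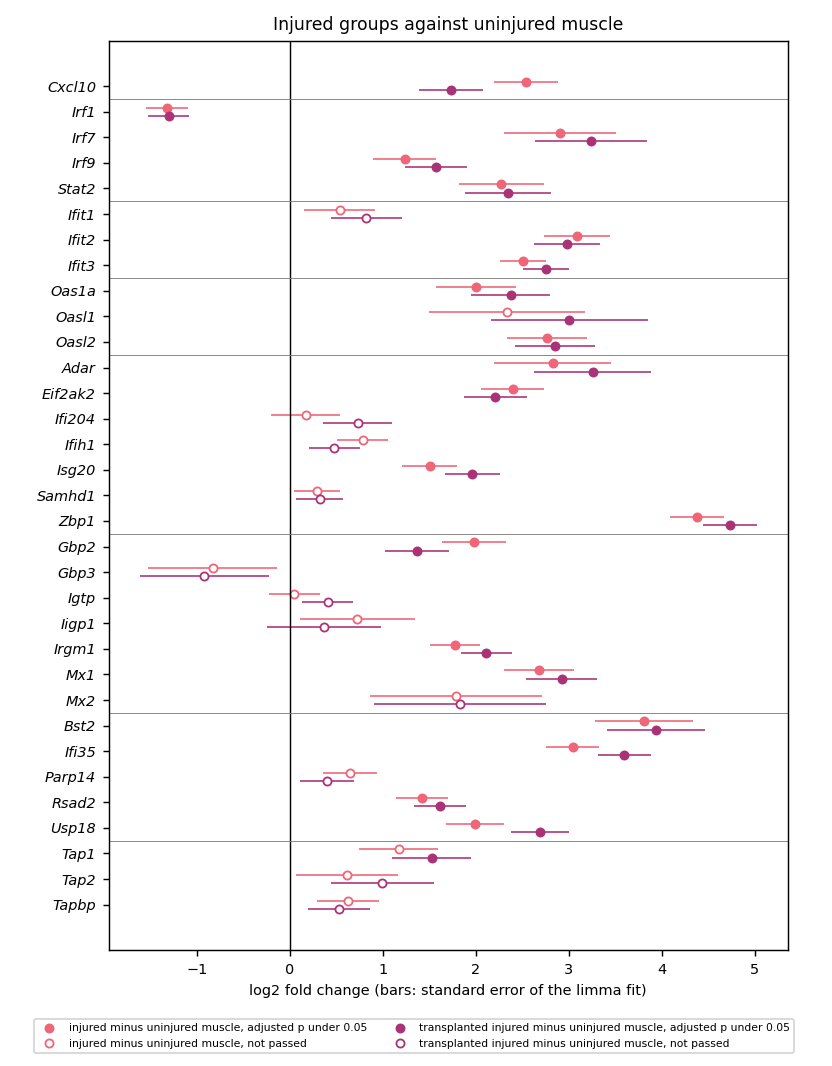
Log2 fold changes (limma, points, with SE as bars) of the 33 genes in injured and in transplanted injured muscle, each against uninjured muscle; filled points passed the test, open points did not. Zbp1 is highest at 4.38 and 4.73, Irf1 lies below 0 in both at -1.32 and -1.30, and Igtp and Gbp3 lie at or under 0.41 in both.

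Transplanted injured muscle against the same 2 uninjured muscle arrays gave 21 genes that rose, 1 that fell and 11 that did not pass, where 10.5% of all tested genes rose and 20.8% fell. The median was 1.83 for the 33 genes and -0.31 for all tested genes. Zbp1 rose by 4.73 (SE 0.29, limma adjusted p = 0.000223), Bst2 by 3.94, Ifi35 by 3.59, Adar by 3.26 and Irf7 by 3.24. Oasl1 passed here with 3.01 (SE 0.84, adjusted p = 0.0287), and so did Tap1 with 1.53 (SE 0.42, adjusted p = 0.028), the single antigen-processing gene to do so. Both calls were lost on leaving out any 1 of the 4 injured arrays and with only the 4 arrays compared, and that of Tap1 was also lost without the first uninjured muscle array. Without the first or the second uninjured muscle array the changes were 1.44 and 4.57 for Oasl1 and 0.89 and 2.16 for Tap1, and those of Irf7 were 2.14 and 4.35. Both comparisons rest on the same uninjured muscle arrays and are not independent.

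Transplanted and untransplanted injured muscle were compared directly to see whether the transplant went with a different level. No gene of the 33 passed in either direction in limma, where 0.0421% of all tested genes were higher and 0.274% lower. An unadjusted limma p under 0.05 was found for 1 of the 33 and for 928 of all 9506 tested genes. The median log2 difference was 0.24 for the 33 genes and -0.00 for all tested genes. Both transplanted arrays lay above both untransplanted ones for 17 genes (25.3% of all tested genes) and below for 5 (26.5%), and 11 overlapped. Among the 17 were Ifit3, Irf7, Irf9, Zbp1, Ifi35, all 3 oligoadenylate synthetase genes, Usp18, Irgm1 and Adar. The 5 lower ones were Cxcl10, Ifih1, Iigp1, Gbp2 and Parp14.

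Cxcl10 had the largest difference, -0.81 (SE 0.34, unadjusted p = 0.0455, limma adjusted p = 0.546), from the values given above. With only the 4 injured arrays in the fit 4 genes passed: Usp18 at 0.70 (adjusted p = 0.0109) and Oasl1 at 0.67 (adjusted p = 0.0114) were higher, and Cxcl10 at -0.81 (adjusted p = 0.00327) and Gbp2 at -0.61 (adjusted p = 0.0265) were lower. In that fit 2.51% of all tested genes were higher and 5.42% lower. The summed natural killer markers were 630 to 689 in injured muscle and 2229 to 2316 in transplanted injured muscle. Of the 7 measured, 1 passed: Gzmb, a granule protease, read 138 and 114 against 1392 and 1246, whereas Klrd1 and Eomes, with log2 differences of 0.01 and -0.07, did not pass. The summed fibroblast markers (8 measured, none passing) were 23145 to 23393 and 4409 to 4712; their part in these differences was not tested.

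**Figure D4:**
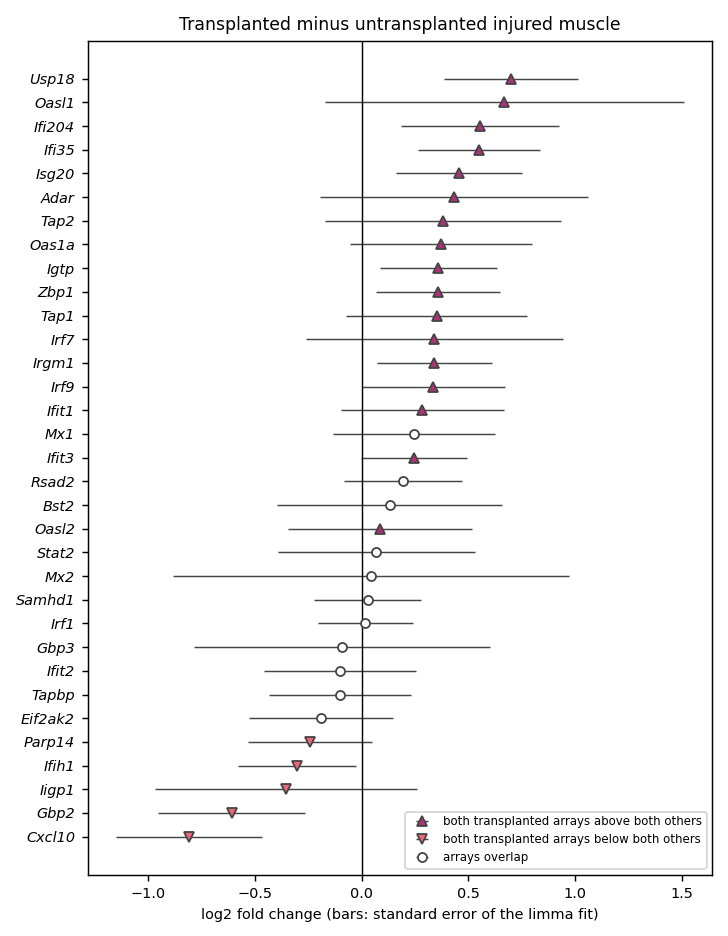
Log2 difference of transplanted minus untransplanted injured muscle (limma on all 8 arrays, with SE) for each of the 33 genes, ordered by size; triangles are genes whose groups did not overlap and open circles those that overlapped. The points run from -0.81 for Cxcl10 to 0.70 for Usp18, and no gene passes the adjusted threshold.

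Uninjured muscle was compared with bone marrow to see how the sorted cells of both tissues differ without injury. Markers of cell types differed as well. Of 8 markers each, 8 of fibroblasts, 4 of endothelium and 6 of muscle fibres passed as higher in uninjured muscle, and 0 as lower. The summed endothelial markers were 891 to 1108 in marrow and 9461 to 10977 in uninjured muscle. Those of stem and progenitor cells (7 measured) were 2699 to 3277 and 1605 to 1673. Their part in the differences below was not tested. Of the 33 genes, 3 rose, 3 fell and 27 did not pass, where 5.85% of all tested genes rose and 1.4% fell. An unadjusted limma p under 0.05 was found for 13 of the 33 and for 2068 of all 9506 tested genes. The medians were 0.06 for the 33 genes and -0.06 for all tested genes. Ifi204 was higher in muscle by 2.29 (SE 0.37, limma adjusted p = 0.00962), Cxcl10 by 2.17 (SE 0.34, adjusted p = 0.00846) and Ifit1 by 1.67 (SE 0.38, adjusted p = 0.0417). Both bone marrow arrays of Ifi204 were under the filter value, so uninjured muscle was at least 3.65-fold higher. The log2 fold change of Bst2 was -3.46 (SE 0.53, adjusted p = 0.00716), that of Stat2 -2.02 (SE 0.46, adjusted p = 0.0414) and that of Ifi35 -1.92 (SE 0.29, adjusted p = 0.0063). The Stat2 call rests on 1 of 2 probe sets, the other having 0.21 (SE 0.36, adjusted p = 0.808), and was lost in 13 of 19 alternatives, the mean of both probe sets among them. Ifit1 lost its call in 10, Bst2 and Ifi204 in 3 each, and Ifi35 and Cxcl10 in 1 each. With only the 4 arrays of these groups in the fit limma called none of the 33, 2.1% of all tested genes as higher and 0.137% as lower.

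Against bone marrow, injured muscle had 19 genes that rose, 1 that fell (Irf1) and 13 that did not pass, beside 12.6% and 17.2% of all tested genes, with medians of 1.69 and -0.27. Zbp1 rose by 4.81 (SE 0.29, limma adjusted p = 5.6e-05) and Cxcl10 by 4.71 (SE 0.34, adjusted p = 0.00011). Transplanted injured muscle had 20 that rose, 1 that fell and 12 that did not pass, beside 12.0% and 19.5%, with medians of 1.94 and -0.32. Zbp1 rose by 5.17 (SE 0.29, adjusted p = 4.62e-05) and Cxcl10 by 3.90 (SE 0.34, adjusted p = 0.00023). Eif2ak2 was under the filter value on both bone marrow arrays and at least 5.09-fold higher in injured muscle and at least 4.47-fold higher in transplanted injured muscle, while for Ifi204 the lower bounds were at least 4.15-fold for injured and at least 6.11-fold for transplanted injured muscle. Bst2 and Stat2, which rose against uninjured muscle, differed from bone marrow by 0.35 (SE 0.53) and 0.25 (SE 0.46) in injured muscle and did not pass. The second probe set of Stat2 rose against bone marrow, by 2.40 (SE 0.36, adjusted p = 0.0022) in injured and by 2.73 (SE 0.36, adjusted p = 0.0012) in transplanted injured muscle. Without either of the injured muscle arrays 12 rose and 1 fell against bone marrow, where 6.31% of all tested genes rose under either omission and 6.99% or 7.88% fell.

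A core of 15 genes rose in all 4 comparisons of an injured with an uninjured group: Ifit2, Ifit3, Isg20, Rsad2, Zbp1, Ifi35, Cxcl10, Oasl2, Oas1a, Mx1, Usp18, Irgm1, Gbp2, Eif2ak2 and Adar. These comparisons share arrays, and 4.92% of all tested genes rose in all 4. Ifit2, Ifit3, Zbp1, Oasl2, Irgm1 and Eif2ak2 passed in all 4 under every one of the 19 alternatives, and the other 9 genes lost at least 1 call under some alternative. At the other end, 8 genes passed in none of the 6 comparisons: Mx2, Igtp, Iigp1, Gbp3, Tap2, Tapbp, Parp14 and Samhd1. How many of all tested genes passed in none was not counted. Of the 13 genes with an ISRE core in the promoter window, 9 rose in injured against uninjured muscle, and of the 12 with a window and no such core, 7 rose and 1 fell. Of the 10 with a GAS core, 7 rose and 1 fell, and of the 15 without, 9 rose.

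Other genes of the pathway showed the following in injured against uninjured muscle. Of 34 tested further interferon targets 15 rose and none fell, with a median of 1.06, against 8.77% and 15.1% of all tested genes. Lgals3bp, a secreted glycoprotein, read 96.6 and 393 in uninjured muscle and 3982 and 4077 in injured muscle and rose by 4.34 (SE 0.59, limma adjusted p = 0.00286). Lgals9, a galectin, read 99.1 and 332 against 2663 and 3075 and rose by 3.95 (SE 0.50, adjusted p = 0.00223). B2m, the light chain of MHC class I, read 8086 and 4672 against 16349 and 17154 and rose by 1.45 (SE 0.26, adjusted p = 0.00728), and Ifi30, a lysosomal reductase, rose by 2.24, Trim30a by 1.63 and Slfn4 by 2.46. Both Lgals9 and Ifi30 are also made by macrophages, whose summed markers are given above; their part was not tested. Of 12 sensors and adaptors 3 rose and none fell: Sting1, the adaptor of DNA sensing, by 2.68, Dhx58, an RNA helicase, by 2.97 and Tlr7, a receptor for single-stranded RNA, by 1.39. In transplanted against untransplanted injured muscle none of these further targets, sensors or receptor genes passed in limma.

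Probe sets of 1 gene did not always read alike. Of the 9 genes with several, both probe sets of Zbp1 (4.38 and 3.80), Stat2 (2.28 and 2.18) and Eif2ak2 (2.40 and 1.86) rose in injured against uninjured muscle. Rsad2 had 3, with log2 fold changes of 2.84, 1.42 and 0.90, of which the last did not pass. That last probe set gave 0.92 in transplanted injured against uninjured muscle and did not pass there either. It was higher in uninjured muscle than in bone marrow by 2.04 (SE 0.43, limma adjusted p = 0.0307), where the one that stands for Rsad2 did not pass. Iigp1 gave 0.73 on its brighter probe set and -0.11 on the dimmer, and neither passed. Gbp2 rose by 1.98 on the probe set that stands for it and by 0.60, without passing, on another whose name marks probes shared with other transcripts. That other probe set gave 0.011 in transplanted injured against uninjured muscle and did not pass. Against bone marrow it gave 0.58 in injured and -0.006 in transplanted injured muscle, and passed in neither. Tapbp had 0.63 on the brighter probe set, which did not pass, and rose by 2.75 (SE 0.71, limma adjusted p = 0.0255) on the dimmer, which read 18.3 and 105 in uninjured muscle and 316 and 342 in injured muscle. Samhd1 gave 0.29 and 0.26 on its brighter probe sets, which did not pass, -1.16 on a dimmer one, which did not pass, and fell by 1.51 (SE 0.29, adjusted p = 0.0092) on another whose name marks shared probes. The further probe sets of Tap1 were too dim to be tested. Statements on Rsad2, Iigp1, Gbp2, Tapbp and Samhd1, and those on Stat2 against bone marrow, therefore hold for the probe set used. The 3' to 5' ratios given above differ between these groups, and their part in the spread between probe sets was not tested.

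**Figure D5:**
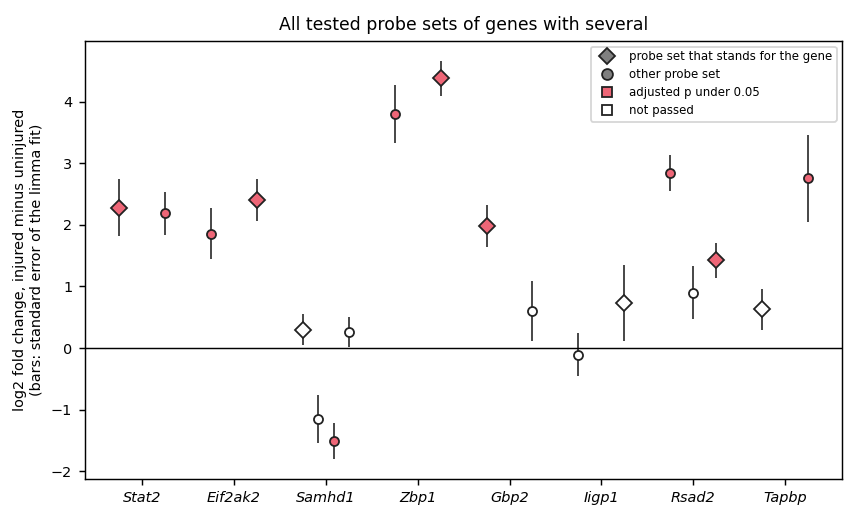
Log2 fold change of injured against uninjured muscle (limma, with SE) for every tested probe set of the genes with several tested; diamonds stand for the gene, and filled symbols passed the test. Probe sets of Zbp1, Stat2 and Eif2ak2 lie together, while those of Samhd1 run from -1.51 to 0.29 and those of Tapbp from 0.63 to 2.75.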

How the data were processed

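The deposited values are intensities on a linear scale, 1 per probe set, of Affymetrix Mouse430A arrays hybridised from 1 µg of total RNA, per the labels' protocols. The submitters' processing notes name GCOS with no version; the sources used here do not describe probe summarisation or background steps. In the deposited intensity table the trimmed mean without the lowest and highest 2% was 250.09 to 250.12 on each array, so arrays were already scaled.

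Control probe sets (64 of 22690) were left out. Of the other 22626, 20380 were annotated to 1 gene, 691 to several and 1555 to none; 5 with several that include a listed gene were not used. Values under 1 were set to 1, and log2(intensity + 4) was tested, 4 being the 10th percentile. Probe sets at or above 38.4 (40th percentile, a filter and no detection limit) on at least 2 arrays were kept: 16289, standing for 9506 genes. Groups were fitted together in limma 3.58.1 (R 4.3.3), 1 mean each on all 8 arrays, with 4 residual degrees of freedom, an intensity trend and two-sided tests adjusted by Benjamini-Hochberg at 0.05. The median SE was 0.45, and 2 arrays per group limit the precision. The fit was also run on simulated data with 1 spread for all probe sets and arrays, as a check of the code only. A fold is given as at least, against 38.4, if neither array of the lower group reached it.

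The members, pathway lists and marker lists were chosen with earlier results of these data known. Fold changes, SE and adjusted p are given for the largest changes, for members against the main direction and for the smallest; other listed genes are those with the smallest p. Promoters printed are those with the motif and the largest changes; Ifit1 and Irf1 were added after their values were seen. Replicate numbers were not used as a block: differences between replicates 1 and 2 correlated at 0.248 between bone marrow and uninjured muscle and at -0.020 to 0.002 between other groups. Alternatives were quantile and median normalization, pseudocounts, filters, no trend, array weights, 4-array fits, a replicate block, means over probe sets, and leaving out each array. Arrays of 1 group correlated at 0.895 (uninjured muscle) to 0.950.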

Additional observations from a re-analysis of the deposited data

How the results depend on the processing

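Of the members called in the fit to all 8 arrays, 11 of 19 that rose in injured against uninjured muscle did so under all 19 alternatives, 15 of 21 for transplanted injured against uninjured muscle, 12 of 19 and 13 of 20 against bone marrow, and 0 of 3 risen and 0 of 3 fallen in uninjured muscle against bone marrow. Leaving out 1 array, the calls ranged from 11 (without the second injured muscle array; 13 without the first) to 25 (without the second uninjured muscle array, where 18.5% of all tested genes rose and 18.9% fell, beside 8.77% and 15.1% with all arrays) for injured against uninjured muscle, from 16 to 26 for transplanted injured against uninjured muscle, from 13 (without either injured muscle array) to 24 for injured muscle against bone marrow and from 15 to 23 for transplanted injured muscle against it. Fits without 1 injured array leave 1 array in a compared group and cannot show whether a count of 0 is stable. For transplanted against untransplanted injured muscle the calls were 0 under each alternative that kept all 8 arrays. They were 4 with only the 4 arrays compared, where 2.51% of all tested genes were higher and 5.42% lower. For uninjured muscle against bone marrow they ranged from 2 (without the first bone marrow array; 3 without the second) to 13 (without the second uninjured muscle array, where 8.84% of all tested genes rose and 12.8% fell, beside 5.85% and 1.4% with all arrays), and were 3 with array weights and 0 with only the 4 arrays compared. The share of all tested genes called moved with these counts: in uninjured muscle against bone marrow 3.41% rose and 0.252% fell without the first bone marrow array, and 3.37% and 0.263% with array weights. For transplanted injured against uninjured muscle the 16 calls stood beside 3.89% and 10.2%, and the 26 beside 19.4% and 22.8%. For both injured groups against bone marrow, the share of all tested genes called was likewise lowest at the smallest counts and highest at the largest. How many of all tested genes kept a call under all 19 alternatives was not counted. With the replicate number as a block, injured against uninjured muscle had 21 calls, where 8.94% of all tested genes rose and 15.4% fell. Transplanted injured against uninjured muscle had 22 (11.1% and 21.2%), and transplanted against untransplanted injured muscle had 0 (0.021% and 0.126%). Uninjured muscle against bone marrow had 5 (5.72% and 1.21%). Injured muscle against bone marrow had 21 (12.8% and 17.8%), and transplanted injured muscle 21 (12.2% and 19.9%). Replicate differences correlated at 0.248 between bone marrow and uninjured muscle and at -0.020 to 0.002 between other groups, so the numbers were not taken to pair the samples; the block gave 5 calls instead of 6 for uninjured muscle against bone marrow.

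Signs turned only for differences that had not passed. Those given here are of genes that passed under at least 1 setting of the comparison. Leaving out 1 array, the second or the first uninjured muscle array in each case, the log2 fold change of Iigp1 ranged from -0.37 to 1.83 in injured and from -0.73 to 1.47 in transplanted injured against uninjured muscle, that of Tapbp from -0.012 to 1.07 and that of Samhd1 from -0.0018 to 0.65 in the latter comparison. In uninjured muscle against bone marrow it ranged likewise from -2.17 to 0.043 for Irf7, from -0.86 to 2.27 for Oasl1, from -0.44 to 1.04 for Oas1a and from -0.072 to 2.12 for Iigp1. Leaving out the second or the first bone marrow array, Stat2 ranged from -0.24 to 0.74 in injured and from -0.17 to 0.81 in transplanted injured muscle against bone marrow. With the mean of all probe sets Iigp1 was -0.026 and Samhd1 -0.51 in transplanted injured against uninjured muscle, and Tapbp 1.07 in transplanted injured muscle against bone marrow. The cause was not tested. With 2 arrays per group the spread is estimated from few values, and probe sets under the filter value of 38.4 carry no usable difference.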
